A study of Mus musculus with 10 samples.

Results

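Transcripts of 10 genes of the neutrophil granule programme were followed through 10 whole mouse livers: Mpo, Elane, Prtn3 and Ctsg (primary granule), Ngp, Camp and Ltf (secondary granule), and S100a8, S100a9 and Retnlg (late neutrophil genes). All 10 were present among the 24537 gene symbols of the count table. The genes were chosen by measured values: Ngp and Mpo were high in CPM (counts scaled to library size, per 1e6) in a single old control liver, so the values of that liver, and every comparison that includes the old controls, are given as a description without a test. The question put to the set was whether immature myelopoiesis accompanies the rise.

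All livers came from male mice in which hepatocytes had received an adeno-associated virus of serotype 8 (AAV8) carrying the small Cas9 of Staphylococcus aureus under the hepatocyte promoter TBG, together with a U6-driven guide RNA. The control virus was aimed at Rosa26, a locus at which disruption is usually tolerated, and the knockout virus at Cd44, which encodes a cell surface receptor. The young control group held 3 livers (Rosa26, virus at 7 months, liver at 9 months), the old control group 3 livers (Rosa26, virus at 23 months, liver at 25 months), and the old knockout groups 2 livers each with guide 2 and guide 4 (virus at 23 months, liver at 25 months). Every group had therefore received virus and Cas9, and TBG restricts the editing to hepatocytes, so the neutrophils measured here were not a target. Replicate numbers serve as names of livers and pair nothing.

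Neutrophils are made in the bone marrow from granulocyte progenitors, and their granule proteins are transcribed in waves. Promyelocytes transcribe the genes of the primary (azurophil) granule, myelocytes and metamyelocytes those of the secondary (specific) granule, and later stages carry abundant S100a8 and S100a9 transcripts. Circulating neutrophils have largely ceased to transcribe the primary granule genes, so that transcripts of Mpo, Elane and Ctsg in a tissue mark precursor cells more than mature ones. The fetal liver is a site of blood formation, which the adult liver has normally lost.

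Total counts ranged from 15821198 to 21710228 per liver, and 3 counts, taken as the detection floor, corresponded to 0.131 to 0.198 CPM. The scaling factors were 0.824 to 0.897 in young and 0.966 to 1.12 in old livers, so that they moved with age. Old control replicate 3 carried a library name outside the run of the other 9, and whether it was prepared apart from them is not stated. Hepatocyte markers were abundant in each liver, with a summed level of 79710 to 124100 CPM over 7 genes. The targeted gene, Cd44, had 10.1 to 16.6 CPM in young control, 14.2 to 30.0 CPM in old control and 13.1 to 29.0 CPM in knockout livers, and its log2 fold change between knockout and old control livers was -0.25 (SE 0.30, edgeR adjusted p 0.896). Whole-liver Cd44 thus did not separate the libraries labelled knockout, and statements on knockout below rest on the labels. In whole tissue, a change in the number of cells of a type and a change in transcript per cell cannot be told apart.

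The promoters of 4 of the genes are shown, because they contrast primary granule genes with the secondary granule gene of highest level, and because Prtn3 and Elane are neighbours whose levels went apart. These are the 250 bases before the RefSeq start on GRCm38.p6, written 5′ to 3′ on the strand of the gene. The gene positions given below are from GENCODE M21, whose starts differ. All 4 windows reach past the start of the GENCODE model, and that of Prtn3 lies wholly within its model (79874476 to 79883174). The word before thus refers here to the RefSeq start only. Capitals mark TTNNGNAA, a form of the C/EBP site, and GAGGAA, a core of the PU.1 site, on either strand (a match on the other strand is printed as its reverse complement, such as TTCCTC).
Mpo (chr11:87793534-87793783, plus strand): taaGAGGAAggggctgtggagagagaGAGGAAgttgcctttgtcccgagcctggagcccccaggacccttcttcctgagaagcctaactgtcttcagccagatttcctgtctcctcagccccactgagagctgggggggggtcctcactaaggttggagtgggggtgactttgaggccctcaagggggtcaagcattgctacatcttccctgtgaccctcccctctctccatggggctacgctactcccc
Elane (chr10:79886062-79886311, plus strand): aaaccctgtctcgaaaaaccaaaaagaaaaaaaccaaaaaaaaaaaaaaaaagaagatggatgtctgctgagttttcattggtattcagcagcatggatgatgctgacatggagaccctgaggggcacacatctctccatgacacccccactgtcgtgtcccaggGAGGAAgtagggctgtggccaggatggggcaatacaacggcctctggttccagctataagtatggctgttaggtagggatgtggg
Prtn3 (chr10:79879417-79879666, plus strand): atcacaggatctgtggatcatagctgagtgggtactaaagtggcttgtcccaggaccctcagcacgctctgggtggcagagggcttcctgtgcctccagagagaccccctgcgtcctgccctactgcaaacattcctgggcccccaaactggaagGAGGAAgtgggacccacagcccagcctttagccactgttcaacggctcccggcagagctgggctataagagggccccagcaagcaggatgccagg
Ngp (chr9:110419558-110419807, plus strand): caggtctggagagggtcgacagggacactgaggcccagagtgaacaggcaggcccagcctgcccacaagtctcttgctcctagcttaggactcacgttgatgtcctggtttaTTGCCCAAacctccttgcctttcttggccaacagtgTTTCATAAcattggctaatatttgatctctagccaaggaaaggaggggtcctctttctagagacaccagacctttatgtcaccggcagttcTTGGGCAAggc
GAGGAA was found before all 4 primary granule genes, and before Ltf and S100a8. TTNNGNAA was found before none of the 4 primary granule genes, but before Ngp, Ltf, Retnlg, S100a8 and S100a9, and Camp held neither. Over all 32851 promoter windows of this length, 23.3% held GAGGAA and 36.8% held TTNNGNAA, against 6 and 5 of the 10 genes. TGNGGT, a RUNX core, lay before 4 of the 10 genes and 40.1% of all windows, and AACNG, a MYB core, before all 10 genes and 74.2% of all windows. In S100a8 the match to TTNNGNAA shares letters with a match to AACNG. Letters of this kind describe the sequence and show no binding.

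Among the primary granule genes, 3 of 4 were highest in old control replicate 2. Mpo, which encodes myeloperoxidase, the enzyme that makes hypochlorous acid, had 31.6 CPM in old control replicate 2. Old control replicates 1 and 3 had 0.246 and 0.667 CPM of Mpo, young controls had 0.0612, 0 and 0.0633 CPM, guide 2 livers 1.37 and 0.408 CPM, and guide 4 livers 0.116 and 0.480 CPM. One old control liver thus stood alone, and the next highest was guide 2 replicate 1. Elane, neutrophil elastase, followed the same order: 13.3 CPM in old control replicate 2, 0.706 CPM in guide 2 replicate 1, and 0.0633 to 0.349 CPM in the other 8 livers. Ctsg, cathepsin G, another serine protease of the granule, had 81 counts (3.69 CPM) in old control replicate 2 and 0 to 4 counts in every other liver, with 0 in all 3 young livers. Measured against the highest of the other 9 livers, old control replicate 2 had 23.2 times as much Mpo, 18.8 times as much Elane and 19.4 times as much Ctsg.

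Prtn3 did not follow the rest of its group. It encodes proteinase 3, a granule protease related to elastase, and lies beside Elane on chromosome 10 (Prtn3 79874476 to 79883174, Elane 79886247 to 79888215, both on the plus strand of GRCm38 in GENCODE M21). Prtn3 levels in old controls were 0.983, 12.9 and 14.1 CPM for replicates 1 to 3, and young controls had 3.06, 1.45 and 2.41 CPM. Guide 2 livers had 0.753 and 0.292 CPM, and guide 4 livers had 3.02 and 8.11 CPM. Its highest level was therefore in old control replicate 3, where Elane had 2 counts and Mpo 14, and guide 4 replicate 2 had 186 counts of Prtn3 beside 8 of Elane and 11 of Mpo. All 3 young livers had more Prtn3 than either guide 2 liver, while guide 2 replicate 1 had more Mpo, Elane and Ctsg than any young liver. The Prtn3 model of GENCODE M21 overlaps the start of Plppr3, a gene on the opposite strand. Whether the counts used strand is not stated. Plppr3 itself had 6.53 to 11.9 CPM over the 10 livers, a range that did not separate the livers with high Prtn3.

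**Figure D1:**
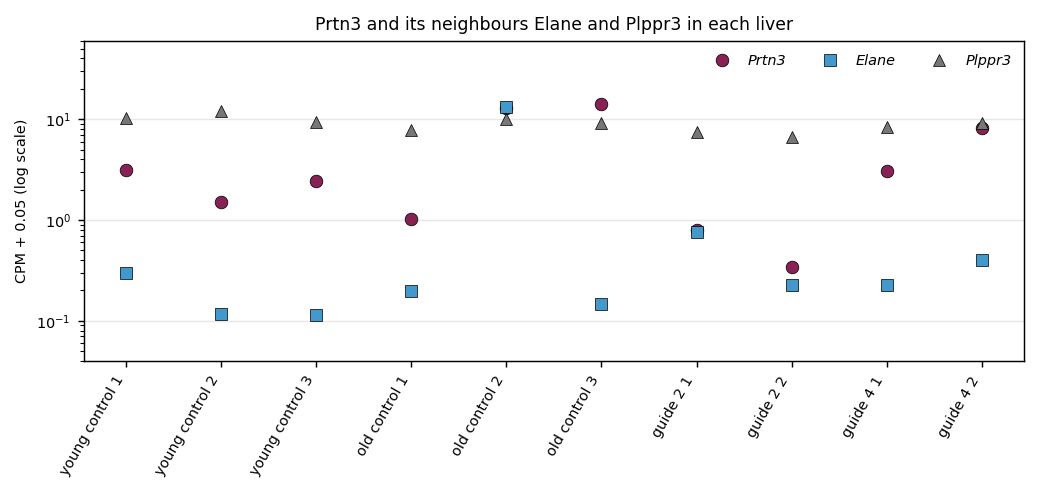
CPM plus 0.05 (log axis) of Prtn3, its neighbour Elane and the overlapping gene Plppr3 in each of the 10 livers, named by group and replicate. Prtn3 and Elane are both near 13 CPM in old control replicate 2, whereas old control replicate 3 and guide 4 replicate 2 have 14.1 and 8.11 CPM of Prtn3 with 0.0954 and 0.349 CPM of Elane.

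Secondary granule genes were close to absent outside 2 livers. Ngp, neutrophilic granule protein, had 63.0 CPM in old control replicate 2 and 0.540 and 0.572 CPM in replicates 1 and 3. Young livers had 0.0612, 0.132 and 0.0633 CPM of Ngp, guide 2 livers 2.97 and 0.350 CPM, and guide 4 livers 0.407 and 0.567 CPM. Ltf, lactoferrin, the iron-binding protein of this granule, had 621 counts (28.3 CPM) in old control replicate 2, 25 counts (1.18 CPM) in guide 2 replicate 1, and 0 to 7 counts in the other 8 livers. Camp, the precursor of the cathelicidin antimicrobial peptide, had 312 counts (14.2 CPM) in old control replicate 2, 23 counts (1.08 CPM) in guide 2 replicate 1, and 0 to 3 counts elsewhere. The young livers had 0 counts of Ltf and of Camp. Taken against a floor of 3 counts per liver, the old control mean was at least 50.7-fold higher than young for Ltf, at least 25.1-fold for Camp and at least 6.97-fold for Ctsg, and each of these means rested on replicate 2. These 3 secondary granule genes lie on the same chromosome, chromosome 9, at 110419747 to 110423012 (Ngp), 109847379 to 109849617 (Camp) and 111019271 to 111042767 (Ltf).

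Late genes were present in every liver, and old control replicate 2 was again the highest. S100a8 and S100a9 encode the subunits of calprotectin, a calcium-binding and metal-sequestering protein of neutrophils and monocytes. S100a8 had 62.3 CPM in old control replicate 2 and 5.85 and 5.77 CPM in replicates 1 and 3. Young livers had 3.18, 1.98 and 1.14 CPM of S100a8, guide 2 livers 6.69 and 2.98 CPM, and guide 4 livers 2.497 and 5.28 CPM. Levels of S100a9 were 80.1 CPM in old control replicate 2, 6.20 and 8.21 CPM in the other old controls, 2.03 to 5.32 CPM in young livers and 4.18 to 9.11 CPM in knockout livers. Retnlg, resistin-like gamma, a transcript of maturing and mature neutrophils, had 5.19 CPM in old control replicate 2 and 0.380 to 1.10 CPM in the other 9 livers. Old control replicates 1 and 3 also lay above all 3 young livers for S100a8 and S100a9, within the range of the knockout livers, whereas for Retnlg they overlapped both. S100a8 made up 33.3% to 48.2% of the counts of the S100a8 and S100a9 pair over the 10 livers, with 43.7% (exact 95% interval 42.0% to 45.5%) in old control replicate 2, so the pair kept nearly the same balance where its level was highest.

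**Figure D2:**
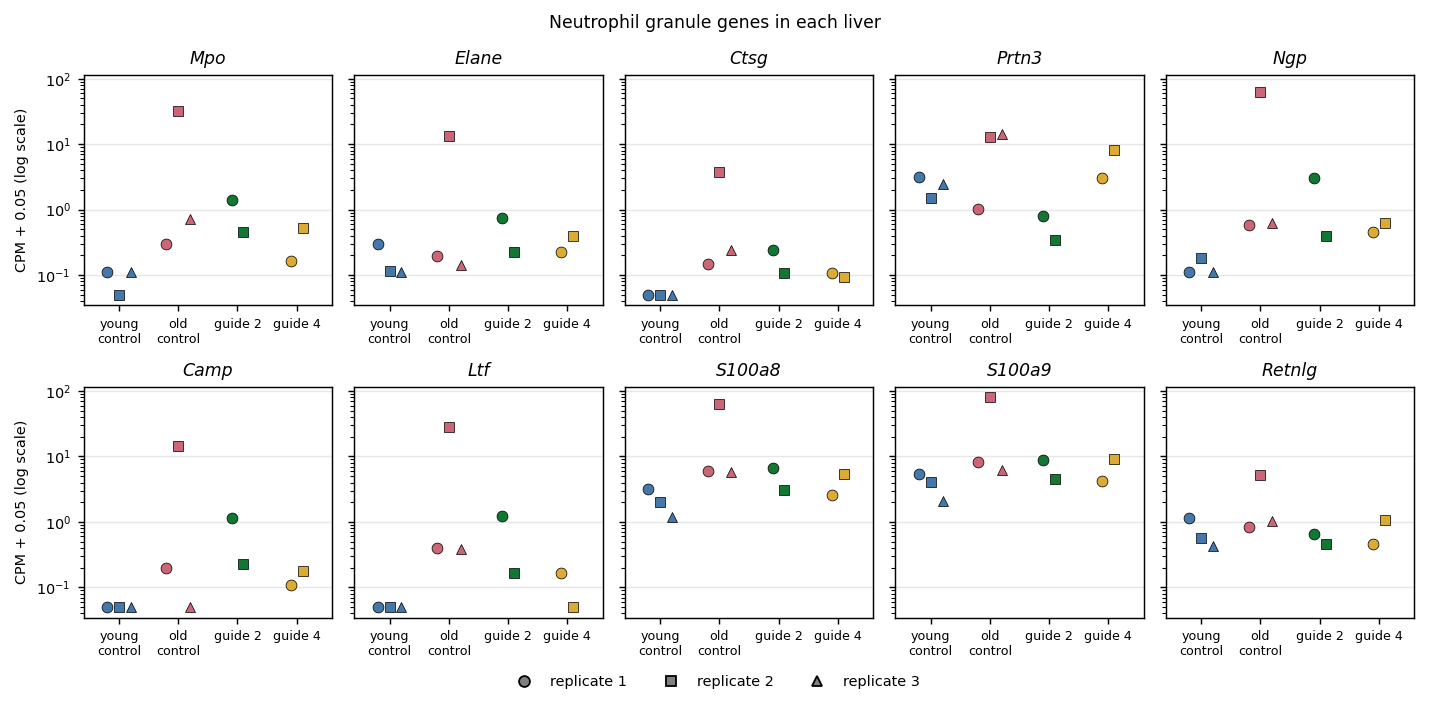
CPM plus 0.05 (log axis) of each of the 10 genes in each liver, by group, with the symbol giving the replicate. Points at the bottom of a panel (0.05) are livers with 0 counts. Old control replicate 2 is the highest liver for 9 genes, and old control replicate 3 for Prtn3.

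Old control replicate 2 was the highest of the 10 livers for 9 of the 10 genes. Among all 13909 genes that passed the count filter, 16.2% were highest in that liver, 1.73% exceeded the highest of the other 9 livers more than 2-fold, 12 genes (0.0863%) more than 5-fold and 3 (0.0216%) more than 10-fold. Of these 12 genes, 4 were Mpo, Ngp, S100a8 and S100a9. Since this liver chose the genes, the shares are given for scale and nothing is read from them. Per kilobase of exon, the levels in that liver ran from 153 CPM per kb for S100a9, 89.7 for S100a8 and 51.5 for Ngp, through 18.8 for Camp and 13.5 for Elane, to 9.23 for Mpo and 3.57 for Ctsg.

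The balance of the granule programme within each liver was then examined, because a share does not depend on the total counts of the set. It does depend on which cells those counts come from. S100a8 and S100a9 also belong to monocytes, and Prtn3 was high in some livers with few counts of Elane and Mpo. How much of the shares came from other cells was not tested. In old control replicate 2, the 4 primary granule genes gave 19.6% of the 6904 counts of the set (exact Clopper-Pearson 95% interval 18.6% to 20.5%), the secondary granule genes 33.5% (32.4% to 34.7%) and the late genes 46.9% (45.7% to 48.1%). These intervals cover counting error only. In guide 2 replicate 1 the secondary granule genes gave 21.4% of 518 counts (18.0% to 25.2%). In the other 8 livers they gave 0.469% to 6.83%. Ngp, whose level chose the set, made up 1382 of the 2315 secondary granule counts in old control replicate 2 and 63 of 111 in guide 2 replicate 1. With Ngp and Mpo left out, Camp and Ltf gave 19.3% (18.2% to 20.5%) in old control replicate 2, 11.3% (8.43% to 14.7%) in guide 2 replicate 1 and 0% to 3.38% in the other 8 livers, and this remains a description of the livers that chose the set. The primary granule share was 8.50% to 52.1% in the 9 other livers, and Prtn3 set its upper end. Without Prtn3, an alternative chosen after its values were seen, the share was 16.1% (15.2% to 17.0%) in old control replicate 2, 9.56% (7.13% to 12.5%) in guide 2 replicate 1 and 0.990% to 7.05% in the other 8 livers. Mpo, the other gene that chose the set, gave 694 of the 1067 counts behind the 16.1%, so nothing is read from this order. With Prtn3 included, old control replicate 2 did not have the largest primary granule share. The counts behind the young shares were few, 97 to 213 in all.

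**Figure D3:**
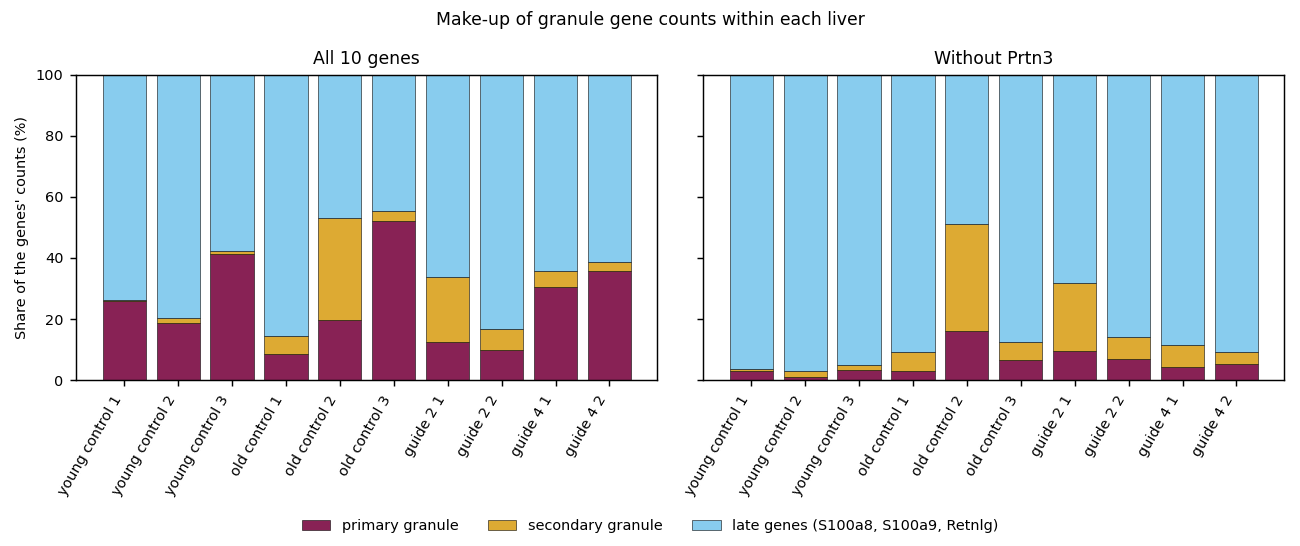
Share of the counts of the set that came from primary granule, secondary granule and late genes in each liver, with all 10 genes (left) and without Prtn3 (right). Secondary granule genes make up 33.5% of the bar of old control replicate 2 and 21.4% of that of guide 2 replicate 1, and at most 6.83% elsewhere.

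Guide 2 replicate 1 was the next highest liver for Mpo, Elane, Ngp, Camp, Ltf and S100a8. Its 4 counts of Ctsg matched old control replicate 3, and its S100a9 was just below guide 4 replicate 2. Its Prtn3 (0.753 CPM) lay below all 3 young livers, and its Retnlg (0.612 CPM) lay within the range of the other livers. Ratios of old control replicate 2 to guide 2 replicate 1 were 23.2 for Mpo (exact interval from counting error 16.0 to 34.8), 18.8 for Elane (11.2 to 34.1), 19.6 for Ctsg (7.37 to 73.7), 17.1 for Prtn3 (10.4 to 30.4), 21.2 for Ngp (16.5 to 27.8), 24.0 for Ltf (16.1 to 37.4) and 13.1 for Camp (8.59 to 21.0). The late genes had smaller ratios, 9.32 for S100a8 (7.83 to 11.2), 9.05 for S100a9 (7.78 to 10.6) and 8.49 for Retnlg (4.77 to 16.4). Ratios of Mpo, Elane, Ctsg and the secondary granule genes thus ran from 13.1 to 24.0, and that of Ctsg rests on 4 counts in guide 2 replicate 1. Late transcripts were less unequal. The ratios compare 1 liver with 1 liver, and the first of them chose the genes, so nothing is read from them. The Prtn3 ratio is not counted here, since its level in guide 2 replicate 1 was not raised above the young livers.

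**Figure D4:**
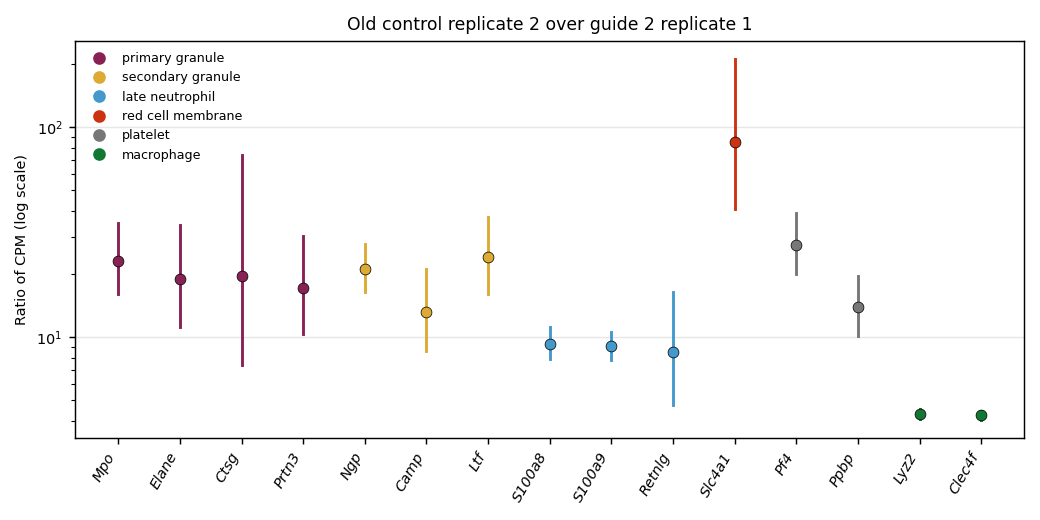
Ratio of CPM in old control replicate 2 to CPM in guide 2 replicate 1 (log axis), with exact 95% intervals that cover counting error only. Primary and secondary granule genes lie between 13.1 and 24.0, late genes between 8.49 and 9.32, and the red cell membrane gene Slc4a1 at 84.8.

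Genes of other neutrophil stages differed in how far they were raised in old control replicate 2. Fcnb, ficolin B of promyelocytes, had 52 counts in old control replicate 2 and 0 in each of the other 9 livers, at least 12.0-fold above a floor of 3 counts per liver. Ms4a3, a surface gene of granulocyte-monocyte progenitors, had 41 counts there and at most 1 elsewhere. Cebpe, the transcription factor of the secondary granule programme, was not highest there: it had 9.39 CPM against up to 14.2 CPM in other livers. Of the secondary and gelatinase granule genes, Chil3 had 12.5 CPM against at most 1.62 CPM in the others and Cd177, a neutrophil surface protein, 4.88 against at most 0.753 CPM. Lcn2, which hepatocytes also make in the acute phase, had 56.4 CPM in that liver and up to 149 CPM in a young liver. Of 16 markers of mature neutrophils, 8 were highest in old control replicate 2, beside 16.2% of all genes that passed the filter. Most were barely ahead. Mxd1, Csf3r, Cxcr2, Acod1, Clec4d and Slpi had 1.05 to 1.31 times the level of the highest other liver, and Stfa2 had 1 count. Ly6g, the surface antigen that defines mouse neutrophils, had 15 counts there and at most 3 elsewhere. The summed level of the 16 genes, to which a few abundant genes contributed most, was 56.5 CPM in that liver and 25.3 to 63.4 CPM in the others, so by the sum it was not the highest. Hdc, histidine decarboxylase, went the other way, with 6.61 CPM against 6.53 to 19.9 CPM. Csf3r, the receptor for granulocyte colony-stimulating factor, had 15.4 CPM against at most 13.9 CPM. Csf3 itself had 0 counts in all 10 livers, and Cxcl1, a neutrophil attractant, had 18.2 CPM there against up to 165 CPM in a young liver. The phagocyte oxidase and lysozyme genes, shared with macrophages, summed to 607 CPM there and to 64.5 to 301 CPM in the others.

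Markers of some other blood cells were also highest in old control replicate 2, and those of others were not. All 11 megakaryocyte and platelet genes were highest in that liver, and their sum was 105 CPM against 4.95 to 19.2 CPM elsewhere; Pf4 and Ppbp, chemokines of the platelet granule, had 50.6 and 27.5 CPM against at most 7.89 and 2.57 CPM. Globin transcripts did not single it out, since Hba-a1 had 619 CPM there and 815 CPM in guide 4 replicate 2. Alas2, the heme synthesis enzyme of erythroid cells, was among the lower values there, with 75.95 CPM against 68.35 to 165 CPM, and the erythroid list as a whole summed to 1807 CPM against 871 to 2305 CPM. Some red cell membrane and erythroblast genes, named after their values were seen, were far higher in that liver: Slc4a1, the band 3 anion exchanger, had 613 counts against 2 to 18 elsewhere, Hemgn 102 against at most 3, and Rhag 47 against 0 in each of the other 9 livers. Of the blood progenitor genes Myb, also named after its values were seen, had 42 counts against at most 6, whereas Kit had 5.10 CPM against up to 10.3 CPM in another liver and the summed list was 21.2 CPM against 8.90 to 19.6 CPM. B cell precursor genes were not raised: Rag1 and Rag2 had 0 counts in that liver and their list summed to 4.92 CPM against 1.96 to 7.49 CPM. Cell cycle genes summed to 99.6 CPM against 29.0 to 64.3 CPM, with 11 of 12 genes highest in that liver and Mki67 at 20.5 CPM against at most 7.11 CPM. By their sums, macrophage, T cell, monocyte, B and plasma cell and stellate cell lists were also highest there. Monocyte genes had 81.7 CPM against 13.7 to 57.2 CPM, with 5 of 7 genes highest in that liver. B and plasma cell genes had 34.8 CPM against 3.76 to 30.0 CPM, with 1 of 7 highest. Stellate cell genes, which are not of blood cells, had 373.5 CPM against 129.5 to 284.1 CPM, with 4 of 5 highest. Kupffer cell genes had 923 CPM against 152 to 608 CPM, with 4 of 6 genes highest in that liver. Marco of that list was lowest there, with 2.51 CPM against 2.61 to 34.25 CPM. T and NK cell genes had 55.2 CPM against 4.75 to 29.4 CPM, with 7 of 9 genes highest and Cd4 alone at 27.6 CPM. Hepatocyte genes were at 0.992 times the median of the other livers. What part any of these cells had in the granule gene levels was not tested.

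Red cell genes in guide 2 replicate 1 were at the level of the remaining livers. There Slc4a1 had 7 counts, Hemgn 0 and Rhag 0. Slc4a1 gave 30.7% of the summed Slc4a1 and Ngp counts in old control replicate 2 (exact interval 28.7% to 32.8%) and 10.0% in guide 2 replicate 1 (4.12% to 19.5%). The share of Pf4 beside Ngp was 44.5% (42.6% to 46.5%) in the first and 38.2% (28.8% to 48.4%) in the second liver. These shares compare 1 liver with 1 liver through genes picked for their level in the first, and nothing is read from the differences.

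**Figure D5:**
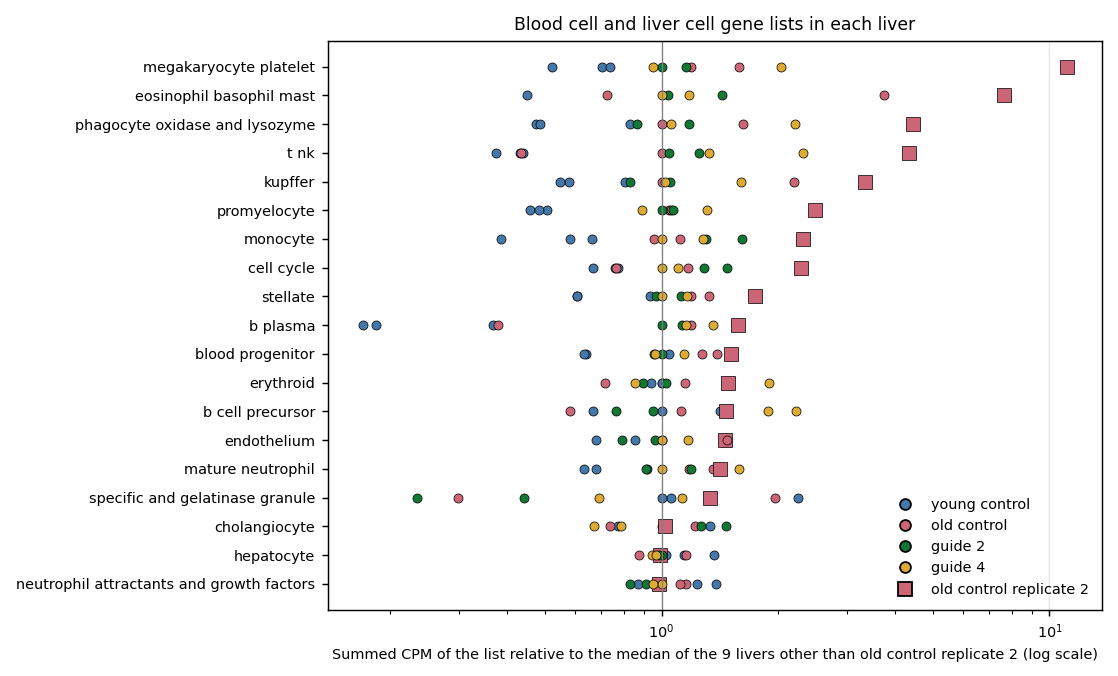
Summed CPM of each gene list in each liver, divided by the median of the 9 livers other than old control replicate 2 (log axis), colored by group. Squares mark old control replicate 2, at 11.1 for the megakaryocyte and platelet list, 2.48 for the promyelocyte list and 1.41 for the mature neutrophil list. Of the promyelocyte sum in that liver (55.8 CPM), Clec12a gave 40.1 and Cebpe 9.39 CPM, and Fcnb and Ms4a3 2.37 and 1.87 CPM. The promyelocyte and mature neutrophil values thus do not compare immature with mature neutrophils. The 2 young livers with 0 counts of the eosinophil, basophil and mast cell list are not drawn.

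The genes with the pattern most like the set were sought over the filtered genes. By the ratio of old control replicate 2 to the highest other liver, the first 10 genes outside the set were Ppbp (10.7), Chil3 (7.70), Pf4 (6.41), Rab44 (5.91), Apol11b (5.53), Trem2 (5.53), Ccl8 (5.31), Clec10a (5.07), Vcam1 (4.78) and Car2 (4.64). They included platelet genes, a secondary granule gene and genes of macrophages such as Trem2 and Clec10a. By correlation over the 10 livers with the mean log2 CPM of the set, the first were Vcam1, Ppbp, Nfatc2, Tmem65 and Pld3, a description in which old control replicate 2 is 1 of 10 points and sets most of the spread. Vcam1, an adhesion molecule for white blood cells, came up by both measures, with 125 CPM in that liver and 12.7 to 26.1 CPM elsewhere.

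Old and young control livers differed in the fitted log2 fold changes of the set mainly through replicate 2. Of the 10 genes, 6 passed the filter on low counts, and Elane, Ctsg, Camp and Ltf did not, with 10 or more counts in at most 2 livers. The fitted log2 fold changes with age were 7.80 for Mpo (SE 2.1), 7.87 for Ngp (SE 2.18), 3.55 for S100a8 (SE 0.91), 3.06 for S100a9 (SE 0.88), 2.01 for Prtn3 (SE 1.03) and 1.79 for Retnlg (SE 0.73), against a median of 0.04 over all genes. Of these 6, 4 (Mpo, Ngp, S100a8 and S100a9) had an edgeR adjusted p under 0.05, all higher in old livers, as did 22.8% of all genes tested (14.1% higher, 8.66% lower), and since this comparison chose the genes nothing is read from that count. Without replicate 2 the log2 fold changes were 3.25, 2.62, 1.46, 0.93, 1.71 and 0.41 in the same order, and none of the 6 had such a p, against 7.35% of all genes. The count was also 0 without young replicate 2 or 3, and 8 of 9 without old control replicate 1 or 3.

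The fitted differences between knockout and old control livers likewise came mainly from replicate 2, except for that of Prtn3. All 6 fitted genes were lower with knockout, with log2 fold changes of -4.27 for Ngp (SE 1.37), -4.14 for Mpo (SE 1.28), -2.49 for S100a8, -2.24 for S100a9, -1.90 for Retnlg and -1.59 for Prtn3. None had an edgeR adjusted p under 0.05, nor had any of the 13909 genes tested (0%), of which 916 had an unadjusted p under 0.05. As this comparison includes the liver that chose the genes, nothing is read from their count. The number by DESeq2 was 8, which held none of the set, and gave no p for Mpo, Ngp, S100a8 and S100a9. Without replicate 2 the values were 0.96 for Ngp, 0.40 for Mpo, -0.40 for S100a8, -0.11 for S100a9, -0.52 for Retnlg and -1.29 for Prtn3, so that Ngp and Mpo changed direction.

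Old knockout and young livers could be compared for the genes other than Ngp and Mpo, since the difference itself uses no old control. Its error did use them, because the spread was estimated over all 10 livers, old control replicate 2 included; a fit of the 2 groups alone is therefore given beside it. S100a8 had 4.36 ± 1.97 CPM in knockout (SD, n = 4) and 2.10 ± 1.03 CPM in young livers (SD, n = 3); the fitted log2 difference was 1.06 (SE 0.86, edgeR adjusted p 0.402). For S100a9 the levels were 6.65 ± 2.7 and 3.77 ± 1.66 CPM (SD, n = 4 and 3), with a log2 difference of 0.83 (SE 0.82, edgeR adjusted p 0.501). The log2 difference was 0.42 for Prtn3 (SE 0.98, edgeR adjusted p 0.790) and -0.12 for Retnlg (SE 0.73, edgeR adjusted p 0.924). None of the 4 passed, against 11.6% of all genes (6.64% higher, 4.97% lower). In that fit their unadjusted p was above 0.05 in each case, and DESeq2 called none of them but gave no p for S100a8 and S100a9. The Prtn3 value was -0.78 without guide 4 replicate 2. Fitted without the filter, Elane, Ctsg, Camp and Ltf had edgeR adjusted p of 0.376 to 0.614. Fitted on the young and knockout livers alone, the S100a8 difference had an SE of 0.418 (edgeR adjusted p 0.0775), and that of S100a9 an SE of 0.377 (edgeR adjusted p 0.117). There 1 of the 4 genes had an unadjusted p under 0.05 and none passed after adjustment. The errors were thus smaller without the old controls in the fit, and a p above the threshold does not show that the levels were alike.

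Several genes of the other lists did pass in that comparison. Beside the 6.64% of all genes that were higher and 4.97% that were lower, of the promyelocyte list 2 of 3 tested genes rose in knockout livers relative to young ones, Clec12a, an inhibitory receptor of myeloid cells, with a log2 difference of 1.86 (SE 0.50, adjusted p by edgeR 0.0373) and Cebpe by 0.66 (SE 0.18, edgeR adjusted p 0.0401). Prss57, the third tested gene, had a log2 difference of 0.17 (SE 0.43, edgeR adjusted p 0.8065). Fcnb, Ms4a3 and Gfi1 of that list did not pass the filter on low counts and were not tested. In knockout livers they had 0, 0 to 1 and 4 to 9 counts. Of the mature neutrophil list 1 of 10 rose, a share near that of all genes: Csf3r, by 1.18 (SE 0.29, edgeR adjusted p 0.0306). Of the attractants 1 of 3 fell, Cxcl1, its log2 difference being -2.29 (SE 0.56, adjusted p by edgeR 0.0314). None of 7 secondary and gelatinase granule genes, 7 oxidase and lysozyme genes or 6 blood progenitor genes passed. Of the cell cycle genes 6 of 12 did, all higher. Calls were not particular to the granule programme: 3 of 7 monocyte, 5 of 8 T and NK cell and 4 of 7 B and plasma cell genes were also higher. None of 6 Kupffer cell genes passed. The median log2 fold changes were 0.66 for the promyelocyte, 0.68 for the mature neutrophil, 0.53 for the secondary and gelatinase granule, 1.19 for the oxidase and lysozyme, 0.34 for the progenitor and 1.46 for the cell cycle list, beside 0.03 over all genes. Clec12a, Cebpe, Csf3r and Cxcl1 each lost the call in 5 to 7 of 11 alternative fits and kept their direction in all 11. Over these fits the edgeR or DESeq2 adjusted p ranged from 0.00157 to 0.148 for Clec12a and 0.00532 to 0.133 for Cebpe. For Csf3r the edgeR or DESeq2 adjusted p ranged from 0.00255 to 0.129, and for Cxcl1 from 0.00679 to 0.145. All 4 calls were lost without young replicate 2, guide 4 replicate 2 or either guide 2 liver. Those of Clec12a and Cebpe were also lost without young replicate 1 or 3, that of Cebpe without guide 4 replicate 1, that of Csf3r without young replicate 3 and that of Cxcl1 without young replicate 1.

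Guides 2 and 4 were compared last, 2 livers each, with the spread estimated over all groups. Here 9 of the 10 genes passed the filter, all but Ctsg, though Mpo, Elane, Camp and Ltf did so only with the other groups in the table. Prtn3 was higher in both guide 4 livers (3.02 and 8.11 CPM) than in both guide 2 livers (0.753 and 0.292 CPM). The fitted difference was 3.37 on the log2 scale (SE 1.09), and its edgeR p was 0.0113 before and 0.827 after adjustment. The other genes had log2 fold changes from -3.57 (SE 3.32) for Ltf to 0.48 (SE 0.98) for Retnlg. None of the 9 passed, against 0.0212% of all 14153 genes, and 1 had an unadjusted edgeR p under 0.05. DESeq2 called none but gave no p for 7 of the 9. Since Mpo, Elane, Camp and Ltf were kept only through other groups, nothing is read from their part in these counts. The spread for all 9 was estimated with old control replicate 2 included. On the 4 knockout livers alone, 5 of the genes passed the filter (Prtn3, Ngp, S100a8, S100a9 and Retnlg), and none had an adjusted p under 0.05. Prtn3 then had a log2 difference of 3.38 with an SE of 0.605 (edgeR adjusted p 0.113), a smaller error than in the fit over all groups. Ngp and Elane had log2 fold changes of -1.77 and -0.74, and without guide 2 replicate 1 these were 0.49 and 0.60.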

How the data were processed

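Polyadenylated RNA of 10 whole livers was sequenced as paired reads on an Element AVITI instrument, per the labels' protocols. The authors deposited 1 table of raw counts per gene symbol, without normalization. The submitters' processing notes name FastQC 0.11.8, Trim Galore 0.4.4, STAR 2.5.3a, HOMER and the build mm10, without their roles. Neither annotation nor strand setting is given in the sources used here. Mpo and Prtn3 overlap a gene on the opposite strand in GENCODE M21 and are uncertain to that extent.

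Counts were tested with edgeR 4.0.16 (quasi-likelihood, TMM factors, filterByExpr with a minimum count of 10) in R 4.3.3, with 1 coefficient for each of young control, old control and knockout over all 10 livers, or 1 per guide for the guide comparison. Adjustment followed Benjamini and Hochberg over every gene tested (threshold 0.05). CPM use total counts times TMM factors. The standard error is the log2 fold change divided by the square root of F. DESeq2 1.42.0, its size factors, no filter, fits of the compared groups alone and leaving out each liver were alternatives. Any 2 livers of a group differed in counts, with chi-square divided by its degrees of freedom at 20.3 or more. The labels do not state that livers of a group came from separate animals, so p-values measure only the spread between these samples. The script was tested on simulated data.

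The genes, the 19 other lists (158 genes, 3 not in the table) and the naming rules were chosen with earlier results of these data known. By those rules the text names all 10 genes, up to 4 genes per list with the highest CPM in the liver with the most Ngp, and the genes most like the set by ratio (at least 50 counts in that liver) or correlation (log2 CPM, prior count 2). Further genes of the lists, and Fcnb, Ms4a3, Rhag, Hemgn, Slc4a1, Myb and Cxcl13, were named after their values were seen. Intervals are exact Clopper-Pearson intervals at 95%. Positions are from GENCODE M21 (GRCm38), and promoters from RefSeq (GRCm38.p6), matched by symbol for all 10 genes.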

Additional observations from a re-analysis of the deposited data

Results flagged for a closer look

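Among the 4 knockout livers, guide 2 replicate 1 lay far above the other 3 for 4 of 12 quantities examined (the 10 genes, their summed CPM and their primary granule share). The gap to the next liver, as a share of the range of the 4 livers, was 0.917 for Ngp (2.97 CPM against 0.350 to 0.567 CPM), 0.901 for Ltf (1.18 CPM against 0 to 0.117 CPM), 0.886 for Camp (1.08 CPM against 0.0581 to 0.175 CPM) and 0.898 for Ctsg (0.188 CPM against 0.0436 to 0.0583 CPM, 4 counts against 1 in each of the others). For values that follow a normal distribution, chance alone gives such a gap in about 1 in 20 groups. Levels that rest on few counts need not follow it, so this rate may not hold here. Genes of the same liver are also not independent. For Mpo and Elane the gap was 0.709 and 0.672, under the limit used.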

How the results depend on the processing

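No paired analysis was possible because no label ties a liver of 1 group to a liver of another. Genes changed with age numbered 3172, and 1192 when only the groups compared were fitted; across the 6 fits that each left out 1 liver the count ranged from 396 (without young replicate 2) to 5327 (without old control replicate 3), and it also moved over 1.5 times without young replicate 1 or 3 or old control replicate 2. Of the set, 4 genes were called with age, 7 without the filter, where all 10 were fitted, 0 by DESeq2, which gave no p for those 4, 0 with only the groups compared, and 0 to 8 leaving out 1 liver (1 without young replicate 1). Knockout against old control gave 0 genes, 8 by DESeq2 and 0 to 3 leaving out 1 liver. Knockout against young gave 1614, 2803 by DESeq2, 4223 with only the groups compared, and 56 (without young replicate 2) to 1652 leaving out 1 liver, moving over 1.5 times without any 1 of the livers except guide 4 replicate 1. The guides gave 3 genes, 10 without the filter, 74 by DESeq2, 36 with only the groups compared and 0 in each of the 4 fits that left out 1 liver, which assume that the lone liver varies like the other groups. None of the set was called in the last 3 comparisons under any alternative run, where DESeq2 gave no p for some. The cause of these shifts was not tested.

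The primary granule share of 19.6% in old control replicate 2 was 13.6% without Ngp and Mpo, 35.7% without S100a8 and S100a9 and 16.1% without Prtn3, the last chosen after seeing the data. The median of the other 9 livers, 25.8%, was 74.3% without S100a8 and S100a9 and 4.35% without Prtn3. Leaving out 1 liver turned the direction of some values that had not passed: against young livers, Retnlg ranged from -0.48 to 0.44 and Prtn3 from -0.78 to 0.79; between guides, Elane ranged from -1.37 to 0.60, Ngp from -2.57 to 0.49, S100a8 from -0.96 to 0.40, S100a9 from -0.67 to 0.59 and Retnlg from -0.33 to 0.95 on the log2 scale. At 97 to 213 counts for the set in young livers, shares there are known only roughly, and changes of genes under 3 counts were not detectable at this depth.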

Other observations

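Mpo was not among the genes most like Prtn3 in pattern. Elane and Ctsg had not passed the filter, so they could not appear among them. Among the 8 genes whose log2 CPM followed Prtn3 most closely over the 10 livers (a search over all filtered genes, made after its values were seen), Cxcl13, a chemokine for B cells, varied over the widest range: old controls had 1.72, 101 and 47.3 CPM (replicates 1 to 3), young livers 5.44, 2.11 and 2.15 CPM, guide 2 livers 1.37 and 1.34 CPM, and guide 4 livers 3.19 and 22.8 CPM. The 3 livers with the most Prtn3 were also the 3 with the most Cxcl13. Cfd, the gene that follows Elane on chromosome 10 and encodes complement factor D, had 10.3 CPM in young replicate 3 and 0.143 CPM in old control replicate 3, and so did not follow Prtn3.

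Transcripts of rarer granulocytes were also counted in old control replicate 2. Prss34, a basophil protease, had 17 counts there and at most 2 in the other livers, and of the eosinophil genes Prg2, a granule protein, had 17 counts against at most 4, Siglecf, a surface receptor, 11 against at most 5, and Epx, the eosinophil peroxidase, 1 against 0. Mcpt8 and Ms4a2, of basophils and mast cells, had 9 and 3 counts there and 10 and 7 in old control replicate 3.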
